A study of Homo sapiens with 8 samples.

Results

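The SLIT-ROBO and semaphorin guidance genes described here are 10 of the 33791 genes with counts in 8 RNA-seq libraries of PNT2, a human prostate epithelial line that was immortalized. They are *SLIT2*, *SLIT3*, *ROBO1*, *SEMA3A*, *SEMA3C*, *SEMA3F*, *NRP1*, *NRP2*, *PLXNA1* and *PLXNA2*. The set was drawn up around *SLIT2*, which was chosen by its RNA-seq level, lower in the cells labelled *ERF* KD than in WT and higher in *ERF* KD + *CIC* KO. The *SLIT2* values are therefore a description and carry no test, and the other 9 genes were tested with the rest of the transcriptome. These 9 were also chosen with earlier results of these data known. All 10 had enough counts to be among the 14653 genes tested.

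The 4 groups held 2 libraries each (replicates A and B). WT cells were parental PNT2. The labelled *ERF* KD lines were made with short hairpin RNA against *ERF* and selected in puromycin. For the labelled *CIC* KO lines, guide RNA against *CIC* and blasticidin were used. The *ERF* KD + *CIC* KO lines, which the labels call a codeletion, carried 1 of the hairpins with either of 2 guides. ERF and CIC are repressors of transcription, and the comparison asks how their single and joint loss changed gene expression. All PNT2 cells were grown in DMEM with serum. Which hairpin or guide a replicate letter stands for, and whether a line was a clone, is not given in the sources used here, so p-values measure only the spread between these libraries.

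The labels of the single-loss lines have to be read with care. *ERF* mRNA was 55.8 and 55.9 CPM (counts scaled to library size, with TMM normalisation) in WT, 81.2 and 77.8 CPM in the libraries labelled *ERF* KD, 18.8 and 11.7 CPM in those labelled *CIC* KO, and 11.6 and 10.4 CPM in *ERF* KD + *CIC* KO. The mRNA that the hairpin targets was thus above WT in both libraries labelled *ERF* KD and below WT in both labelled *CIC* KO. Neither difference passed the test against WT. The log2 fold change was 0.51 in labelled *ERF* KD (edgeR adjusted p = 0.161) and -1.87 in labelled *CIC* KO (SE 0.211, edgeR adjusted p = 0.248). In *ERF* KD + *CIC* KO it was -2.34 and passed (edgeR adjusted p = 0.0157). For the single-loss libraries, file names and labels also carry opposite letters. *CIC* mRNA was 128 and 129 CPM in WT, 109 and 109 in labelled *ERF* KD, 132 and 131 in labelled *CIC* KO and 90.9 and 66.4 CPM in the joint loss, which did not pass the test against WT (edgeR adjusted p = 0.122), and a Cas9 cut need not lower it. The methods of the study state that its lines were checked for both factors by qPCR and western blot, and the libraries here are separate measurements. The labels were kept, and every direction given below for a single-loss group belongs to the libraries labelled so. Exchanging the 2 labels would exchange their values and leave the *ERF* KD + *CIC* KO against WT values and the interaction as they are.

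SLIT proteins are secreted ligands that bind ROBO receptors and steer growing axons and migrating cells. Class 3 semaphorins are secreted as well, and signal through receptor pairs in which a neuropilin binds the ligand and an A-type plexin passes the signal into the cell. Both systems also act outside the nervous system, in blood vessel growth and in epithelia, where they affect cell movement and adhesion.

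Libraries held between 19477473 and 25813157 estimated counts. Of 14 epithelial markers, such as *CDH1* and *KRT5*, 11 were lower in labelled *ERF* KD than in WT (edgeR quasi-likelihood test, adjusted p under 0.05) and none was higher. Their summed level was 4933 to 5848 CPM in WT, 1935 to 2425 in labelled *ERF* KD, 5144 to 6317 in labelled *CIC* KO and 5150 to 6211 CPM in *ERF* KD + *CIC* KO. Of 13 mesenchymal markers, 6 were higher in labelled *ERF* KD (*VIM*, *TWIST1*, *ZEB1*, *ZEB2*, *CDH2* and *COL3A1*) and 1 was lower (*FN1*). Over all genes tested, 4.01% were higher and 6.07% lower in this comparison. The marker lists too were chosen with earlier results of these data known, so these counts are descriptions. The mesenchymal sum overlapped between WT (3332 to 4352 CPM), labelled *ERF* KD (3501 to 4314) and labelled *CIC* KO (3520 to 4027). In *ERF* KD + *CIC* KO it was 2314 to 3124 CPM, below the WT range. Endothelial markers summed to 8.15 to 76.7 CPM over all libraries, blood markers to 6.65 to 52.6 CPM, and neuronal and Schwann cell markers to 102 to 166 CPM. *SOX10*, a Schwann cell marker on the last list, was at 0 counts in every library. Of the 10 genes on that list, 5 had enough counts to be tested. The 17 guidance genes called against WT below by this test, 4 members among them, were all called in labelled *ERF* KD. That group had the lower epithelial level, and the part of that shift in the changes of these genes was not tested. The epithelial level of the joint loss overlapped with that of WT. In bulk RNA, fewer cells of a type and less RNA per cell cannot be told apart.

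ERF belongs to the ETS family, whose members bind a GGAA core, and CIC binds octamers such as TGAATGAA. The 250 bases before the RefSeq start (GRCh38.p14, plus strand) are shown for *SLIT2*, the gene that defines the set, at chr4:20251655-20251904, and for *NRP2*, which was lowest in labelled *ERF* KD and *ERF* KD + *CIC* KO, at chr2:205682251-205682500. Capitals mark GGAA on either strand.

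SLIT2: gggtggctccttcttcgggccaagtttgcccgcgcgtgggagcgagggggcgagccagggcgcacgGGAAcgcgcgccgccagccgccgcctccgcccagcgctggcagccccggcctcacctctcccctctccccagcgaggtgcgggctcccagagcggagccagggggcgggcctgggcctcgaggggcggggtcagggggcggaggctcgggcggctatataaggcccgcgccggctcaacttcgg

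NRP2: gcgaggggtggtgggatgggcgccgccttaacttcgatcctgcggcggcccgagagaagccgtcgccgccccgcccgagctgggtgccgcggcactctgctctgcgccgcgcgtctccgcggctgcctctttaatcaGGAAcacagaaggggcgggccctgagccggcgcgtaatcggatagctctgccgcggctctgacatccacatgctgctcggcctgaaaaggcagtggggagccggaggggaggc

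Each of these windows held 1 GGAA core. RefSeq windows matched 8 of the 10 genes, in 12 windows (none was matched for *SEMA3A* and *NRP1*), and all 12 held GGAA on 1 strand or the other, as did 92.7% of all 35116 promoter windows of this length. The longer ETS form CCGGAAG was in 0 of the 12 windows and in 8.52% of all windows. The CIC octamers TGAATGAA, TGAATAAA, TCAATGAA, TCAATAAA and TGAATGGA, searched on both strands, were in 0 of the 12 and in 4.72% of all windows. These letter matches are descriptions of short windows, and the RefSeq start of *SLIT2* lies 1355 bases before the first GENCODE start of the gene.

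*SLIT2* (ENSG00000145147, chr4:20253260-20620561, GRCh38, plus strand) encodes a secreted ligand of ROBO receptors. It gave 152 and 91 counts in WT (7.22 and 4.64 CPM), 0 and 7 counts in labelled *ERF* KD (0 and 0.348 CPM), 102 and 52 counts in labelled *CIC* KO (4.74 and 2.50 CPM), and 762 and 341 counts in *ERF* KD + *CIC* KO (32.3 and 19.2 CPM). The order from the highest was the joint loss, WT, labelled *CIC* KO and labelled *ERF* KD. WT and labelled *CIC* KO overlapped, and the other neighbours did not. By mean CPM, *ERF* KD + *CIC* KO stood 4.34-fold above WT and 7.11-fold above labelled *CIC* KO. WT stood 34.1-fold above labelled *ERF* KD, a ratio that rests on 7 counts in a single library. In the other labelled *ERF* KD library, 0 counts allow a level of up to 0.144 CPM (3 counts, counting error only).

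The *SLIT2* reads fell almost wholly on a pair of protein-coding transcript models, SLIT2-202 (1521 codons) and SLIT2-204 (1529 codons). They held 388.0 and 356.1 counts in *ERF* KD + *CIC* KO replicate A and 111.3 and 223.9 counts in replicate B. In WT, SLIT2-204 held the larger number in both libraries, 103.0 and 56.6 counts, against 49.0 and 34.4 for SLIT2-202. Both models were present in each WT and *ERF* KD + *CIC* KO library, so the higher gene total did not rest on 1 of them. In labelled *ERF* KD, SLIT2-202 was at 0 in both libraries and SLIT2-204 at 0 and 5.4 counts.

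*SLIT3* (ENSG00000184347, chr5:168661733-169301129, minus strand), the paralogous ligand, was measured at 50.1 and 55.6 CPM in WT, 92.7 and 70.2 in labelled *ERF* KD, 40.4 and 36.5 in labelled *CIC* KO and 25.8 and 35.5 CPM in *ERF* KD + *CIC* KO. Both *ERF* KD + *CIC* KO libraries were the 2 lowest of the 8, and both labelled *ERF* KD libraries the 2 highest. *SLIT3* was lower in *ERF* KD + *CIC* KO than in labelled *ERF* KD (log2 fold change -1.41, SE 0.199, edgeR adjusted p = 0.00335). Against WT it did not pass the test, at 0.62 (SE 0.195, edgeR adjusted p = 0.0851) in labelled *ERF* KD and -0.79 (SE 0.197, edgeR adjusted p = 0.166) in *ERF* KD + *CIC* KO. Its exons share 334 bases with the antisense gene AC011365.2 and 216 with the antisense gene AC011365.1. Since the strandedness of the libraries is not given, reads from the antisense partners cannot be told apart there.

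**Figure D1:**
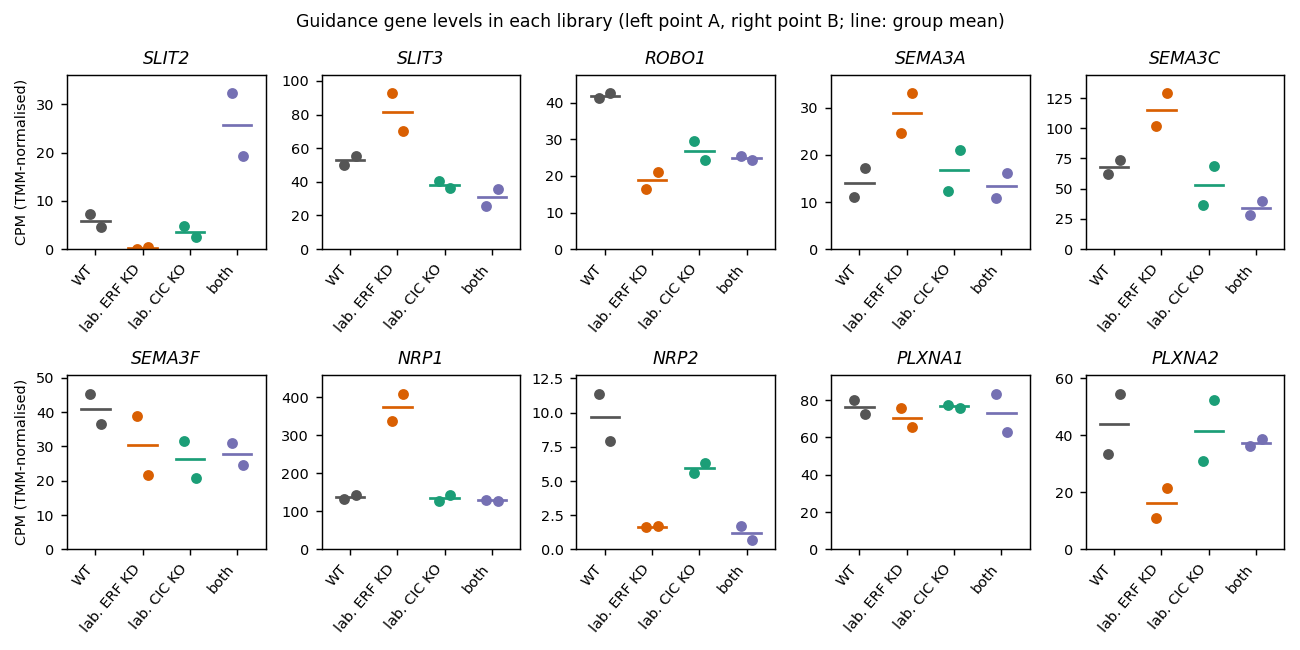
Levels of the 10 guidance genes in CPM (vertical axes, linear and starting at 0, a scale for each gene) in the 8 libraries, with points for replicates A and B and a line at the group mean. *SLIT2* was highest in *ERF* KD + *CIC* KO (labelled "both"; 32.3 and 19.2 CPM) and near 0 in labelled *ERF* KD, whereas *NRP1* stood out in labelled *ERF* KD (339 and 410 CPM).

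Per length, the balance of the SLIT ligands differed between groups. TPM, the deposited relative abundance that corrects for transcript length, allows levels of different genes to be set side by side. *SLIT2* made up 11.4% and 6.6% of the summed *SLIT2* and *SLIT3* TPM in WT, 0% and 1.6% in labelled *ERF* KD, 10.4% and 11.1% in labelled *CIC* KO, and 55.3% and 32.8% in *ERF* KD + *CIC* KO. The summed TPM of the pair was 16.8 and 17.2 in WT, next to 17.5 and 13.9 in *ERF* KD + *CIC* KO. Since *SLIT2* chose the set, these shares are a description.

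*ROBO1* (ENSG00000169855, chr3:78597240-79767815, minus strand) encodes a receptor for SLIT ligands. It was at 41.2 and 42.6 CPM in WT, 16.5 and 21.1 in labelled *ERF* KD, 29.5 and 24.4 in labelled *CIC* KO and 25.4 and 24.4 CPM in *ERF* KD + *CIC* KO. All 6 libraries with a loss lay below both WT libraries. The decrease passed the test in labelled *ERF* KD (log2 fold change -1.16, SE 0.172, edgeR adjusted p = 0.0047), and not in labelled *CIC* KO (-0.64, SE 0.169) or in *ERF* KD + *CIC* KO (-0.75, SE 0.170, edgeR adjusted p = 0.127). The call in labelled *ERF* KD was lost with length-scaled counts and on both log2 TPM scales, where the log2 fold change stayed below 0 (up to -0.90, adjusted p up to 0.139). The interaction of 1.05 passed with the replicate letter as a block (edgeR adjusted p = 0.0254) and not without it (0.0531).

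The other receptors of the family gave few calls. *ROBO4*, which is best known from blood vessels, was lower in labelled *ERF* KD than in WT (1.20 and 1.69 against 3.66 and 5.15 CPM; log2 fold change -1.60, SE 0.366, edgeR adjusted p = 0.0293). *ROBO3* had 482 and 382 counts in WT, 360 and 242 in labelled *ERF* KD, and did not pass the test. *ROBO2* and *SLIT1* were not tested, with at most 3 and 5 counts in any library.

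*NRP1* (ENSG00000099250, chr10:33177492-33336262, minus strand), the co-receptor for *SEMA3A* and for vascular endothelial growth factor, gave the clearest difference among the tested members. It was at 132 and 144 CPM in WT, 339 and 410 in labelled *ERF* KD, 127 and 142 in labelled *CIC* KO and 130 and 127 CPM in *ERF* KD + *CIC* KO. Only the labelled *ERF* KD libraries stood apart, and the other 6 lay between 127 and 144 CPM. The log2 fold change against WT was 1.44 (SE 0.143, edgeR adjusted p = 0.000683). *ERF* KD + *CIC* KO lay 1.54 below labelled *ERF* KD on the log2 scale (-1.54, SE 0.144, edgeR adjusted p = 0.000446). The interaction, which asks whether the effect of 1 loss depends on the other, was -1.51 (SE 0.200, edgeR adjusted p = 0.00585). These 3 calls held under all alternatives computed for them (15, 15 and 14).

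*NRP1* transcript models fall into those that end at the stop codon of the 923-codon model NRP1-206 and those that end earlier. The former (4 models with a complete coding region) share the stop codon of the full-length membrane-bound receptor, and the latter (5 models of 597 to 704 codons) include the 644-codon NRP1-204. The former held 27.4 and 29.2 TPM in WT, 79.0 and 86.6 in labelled *ERF* KD, 26.9 and 25.2 in labelled *CIC* KO and 28.9 and 23.0 TPM in *ERF* KD + *CIC* KO. The latter held 21.0 and 17.4 TPM in WT and 24.5 and 34.9 TPM in labelled *ERF* KD. Their share of these 9 models was 43.4% and 37.4% in WT and 23.7% and 28.7% in labelled *ERF* KD, without overlap, but 26.4% and 44.3% in *ERF* KD + *CIC* KO. The division of reads between near-identical models is an estimate. NRP1-201 and NRP1-206, both of 923 codons, exchanged most of their counts between the labelled *CIC* KO replicates (1238.2 and 35.4 against 365.6 and 1653.5). *NRP1* shares 561 exonic bases with the antisense gene AL121748.2.

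*NRP2* (ENSG00000118257, chr2:205681990-205798133, plus strand), the neuropilin that binds *SEMA3C* and *SEMA3F*, was low in 2 groups. It was at 11.4 and 7.95 CPM in WT, 1.63 and 1.69 in labelled *ERF* KD, 5.58 and 6.30 in labelled *CIC* KO and 1.74 and 0.677 CPM in *ERF* KD + *CIC* KO. Labelled *ERF* KD and *ERF* KD + *CIC* KO overlapped with each other and lay below labelled *CIC* KO, which lay below WT. Counts were few, 34 and 34 in labelled *ERF* KD and 41 and 12 in *ERF* KD + *CIC* KO, against 240 and 156 in WT. The log2 fold change against WT was -2.54 in labelled *ERF* KD (SE 0.425, edgeR adjusted p = 0.0078). The value of -2.97 in *ERF* KD + *CIC* KO (SE 0.436) did not pass (edgeR adjusted p = 0.059). *NRP2* shares 147 exonic bases with the antisense gene AC007362.1, where reads of the 2 genes cannot be told apart.

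The call in labelled *ERF* KD was lost without WT replicate A, with length-scaled counts and on both log2 TPM scales (adjusted p up to 0.0727), where the fold change kept its sign (-1.81 at the smallest). DESeq2, the fit without the filter and the replicate block (edgeR adjusted p = 0.0154) called the change in *ERF* KD + *CIC* KO against WT. The gene's TPM depended on short models. NRP2-216, a retained-intron model of 221 bases, supplied 5.63 of the 12.1 TPM in WT replicate B and 0 in WT replicate A. Thus *NRP2* was 9.53 and 12.1 TPM in WT, 4.21 and 1.16 in labelled *ERF* KD, 14.7 and 6.24 in labelled *CIC* KO and 0.925 and 0.715 TPM in *ERF* KD + *CIC* KO, and on this scale labelled *CIC* KO overlapped with WT.

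The neuropilins moved in opposite directions in labelled *ERF* KD. *NRP1* made up 87.4% and 81.7% of the summed neuropilin TPM in WT, 97.2% and 99.3% in labelled *ERF* KD, 79.7% and 91.5% in labelled *CIC* KO and 98.5% and 98.7% in *ERF* KD + *CIC* KO. The high share of *NRP1* in *ERF* KD + *CIC* KO came with an *NRP1* level like that of WT and a low *NRP2* level.

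**Figure D2:**
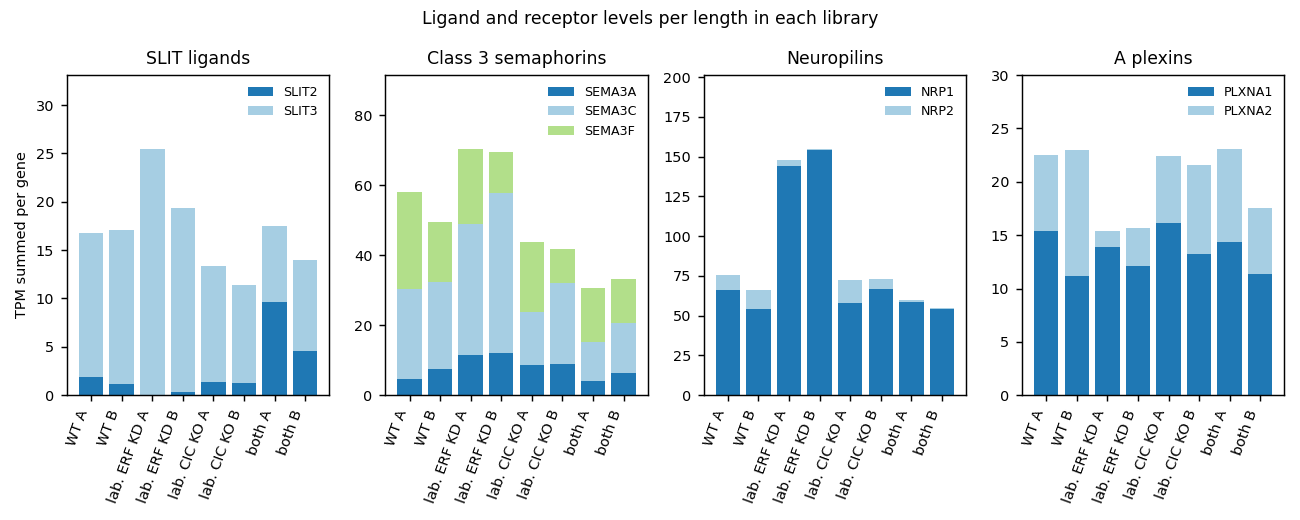
Stacked bars of TPM summed per gene (vertical axes from 0) for the SLIT ligands, the class 3 semaphorins, the neuropilins and the A plexins in each of the 8 libraries. *SLIT2* took 55.3% and 32.8% of the SLIT bar in *ERF* KD + *CIC* KO ("both"), and the neuropilin bar was highest in labelled *ERF* KD, at 148 and 155 TPM.

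*SEMA3A* (ENSG00000075213, chr7:83955777-84492724, minus strand), a repulsive ligand that binds *NRP1*, was at 11.0 and 17.2 CPM in WT, 24.6 and 33.1 in labelled *ERF* KD, 12.4 and 21.0 in labelled *CIC* KO and 10.8 and 16.1 CPM in *ERF* KD + *CIC* KO. Both labelled *ERF* KD libraries were above all others, and the other 3 groups overlapped. The log2 fold change of 1.04 against WT (SE 0.338) did not pass the test (edgeR adjusted p = 0.0972). With the replicate block it was 1.06 and passed (edgeR adjusted p = 0.00215), as did the decrease of the joint loss against labelled *ERF* KD (-1.12, edgeR adjusted p = 0.00147, next to 0.0722 without the block) and the interaction (-1.35, edgeR adjusted p = 0.00622, next to 0.186).

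*SEMA3C* (ENSG00000075223, chr7:80742538-80922359, minus strand), a ligand of both neuropilins, was at 62.5 and 74.1 CPM in WT, 102 and 129 in labelled *ERF* KD, 36.7 and 69.1 in labelled *CIC* KO and 28.6 and 39.8 CPM in *ERF* KD + *CIC* KO. Labelled *ERF* KD stood above and *ERF* KD + *CIC* KO below WT without overlap. Neither difference from WT passed the test (log2 fold changes 0.76, SE 0.293, and -1.0, SE 0.297, edgeR adjusted p = 0.153 and 0.219). The difference between the 2 groups did, at -1.76 (SE 0.301, edgeR adjusted p = 0.00794). It was not called without *ERF* KD + *CIC* KO replicate A (adjusted p = 0.0786). The replicate block called both differences from WT (0.75 and -1.02, edgeR adjusted p = 0.0142 and 0.0261) and the interaction (-1.35, edgeR adjusted p = 0.00851, next to 0.125 without it).

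*SEMA3F* (ENSG00000001617, chr3:50155045-50189075, plus strand), which signals through *NRP2*, passed no test. It was at 45.4 and 36.6 CPM in WT, 38.9 and 21.7 in labelled *ERF* KD, 31.5 and 20.8 in labelled *CIC* KO and 31.1 and 24.5 CPM in *ERF* KD + *CIC* KO. Its log2 fold changes against WT lay between -0.65 and -0.44 with SEs of 0.303 to 0.304. The gene shares 110 exonic bases with the antisense gene SEMA3F-AS1.

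*PLXNA2* (ENSG00000076356, chr1:208022242-208244320, minus strand), a signalling receptor for class 3 and class 6 semaphorins, was at 33.3 and 54.6 CPM in WT, 11.1 and 21.5 in labelled *ERF* KD, 30.9 and 52.2 in labelled *CIC* KO and 36.1 and 38.8 CPM in *ERF* KD + *CIC* KO. The labelled *ERF* KD libraries lay below all others. The log2 fold change of -1.43 against WT (SE 0.372) passed narrowly (edgeR adjusted p = 0.0474). The call was lost in 6 of 15 alternatives, among them those without WT replicate A, WT replicate B or labelled *ERF* KD replicate A, with adjusted p up to 0.24. With the replicate block, the joint loss was higher than labelled *ERF* KD (1.28, edgeR adjusted p = 0.00266, next to 0.076 without it) and the interaction passed (1.37, edgeR adjusted p = 0.0167, next to 0.248).

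*PLXNA1* (ENSG00000114554, chr3:126988594-127037392, plus strand), its paralog, varied least. It was at 80.2 and 72.6 CPM in WT, 75.5 and 65.4 in labelled *ERF* KD, 77.6 and 75.9 in labelled *CIC* KO and 83.5 and 62.9 CPM in *ERF* KD + *CIC* KO. Each of the other 3 groups overlapped with WT, and the log2 fold changes against WT were -0.12, 0.01 and -0.06 with SEs of 0.162.

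**Figure D3:**
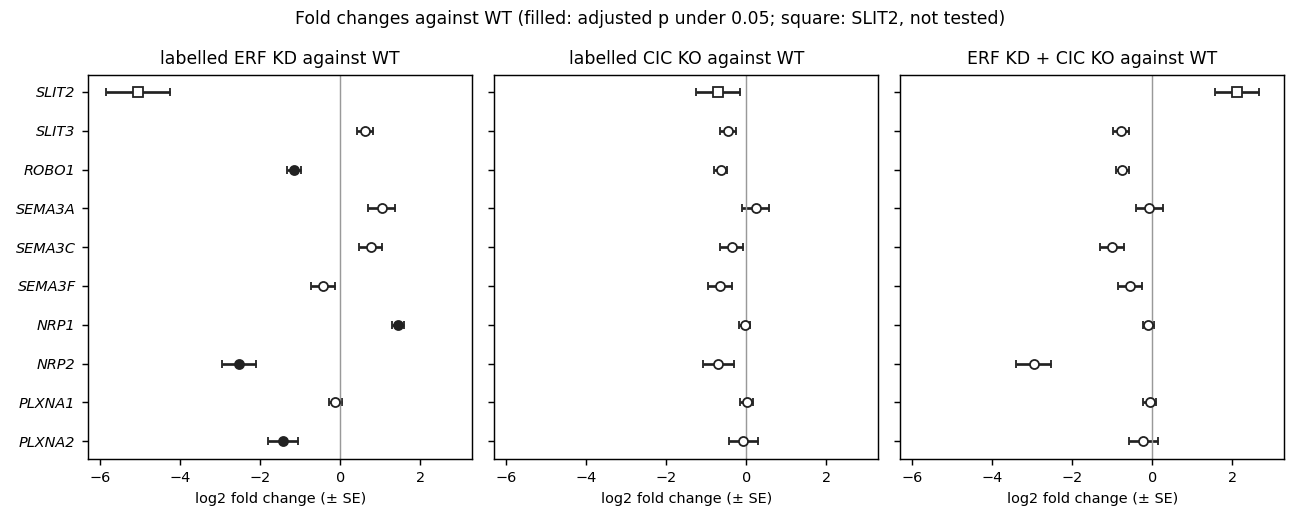
Log2 fold changes of the 10 genes (horizontal axis) against WT, with a panel for each other group and bars of 1 SE. Filled points passed an adjusted p under 0.05 (*ROBO1*, *NRP1*, *NRP2* and *PLXNA2*, in labelled *ERF* KD), and the square marks *SLIT2*, which was not tested.

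Counted over the set, 4 of the 9 genes other than *SLIT2* passed the test in labelled *ERF* KD against WT, where 10.1% of all genes tested did. The members were chosen with earlier results of these data known, so this and the counts below are descriptions. *NRP1* was higher, beside 4.01% of all genes, and *ROBO1*, *NRP2* and *PLXNA2* were lower, beside 6.07%. The median log2 fold change of the 9 was -0.12, beside 0.01 over all genes. Without WT replicate A the count fell to 2, and it was also 2 with length-scaled counts and on both log2 TPM scales. In *ERF* KD + *CIC* KO against labelled *ERF* KD, 3 of 9 passed, all lower (*SLIT3*, *SEMA3C* and *NRP1*), where 11.7% of all genes were called, 6.04% higher and 5.62% lower. In the interaction 1 of 9 passed (*NRP1*), where 4.15% of all genes did. With the replicate block these 3 counts were 6, 5 and 5 of 9, where 18.2%, 20.6% and 9.55% of all genes were called.

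No gene of the 9 passed the edgeR test in the other comparisons. In labelled *CIC* KO against WT 0% of all genes were called, and of the 9 genes 2 had an unadjusted p under 0.05 (*SLIT3* and *ROBO1*), as did 4.01% of all genes. DESeq2 called 0 of the 9 there and 0.177% of all genes. In *ERF* KD + *CIC* KO against WT 0.0682% of all genes were called, and 4 of the 9 had an unadjusted p under 0.05 (*SLIT3*, *ROBO1*, *SEMA3C* and *NRP2*), as did 13.3% of all genes. For the same comparison DESeq2 called 4 of the 9 and 3% of all genes, and the replicate block called 2 (*SEMA3C* and *NRP2*) and 2.49% of all genes. In *ERF* KD + *CIC* KO against labelled *CIC* KO 0% of all genes were called, and of the 9 *NRP2* alone had an unadjusted p under 0.05 (log2 fold change -2.27, SE 0.431, edgeR adjusted p = 0.296), as did 8.3% of all genes. DESeq2 called 1 of the 9 there and 0.962% of all genes. These comparisons share WT or *ERF* KD + *CIC* KO libraries and are not independent of each other.

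Compared per length within WT, *NRP1* was the most abundant member at 60.1 ± 8.61 TPM (SD, n = 2), followed by *SEMA3C* (25.2 ± 0.445), *SEMA3F* (22.5 ± 7.57), *SLIT3* (15.5 ± 0.817), *PLXNA1* (13.3 ± 2.96), *ROBO1* (11.8 ± 1.45), *NRP2* (10.8 ± 1.83), *PLXNA2* (9.45 ± 3.34), *SEMA3A* (6.10 ± 1.86) and *SLIT2* (1.52 ± 0.551 TPM). *NRP1* lay above and *SLIT2* below all other members in both WT libraries. The neighbours in between overlapped, except *SEMA3F* and *SLIT3*, whose means differed by less than the SD of *SEMA3F*. *SLIT2* in *ERF* KD + *CIC* KO reached 7.11 ± 3.59 TPM, overlapping with *SLIT3* (8.59 ± 1.11 TPM), *ROBO1* (6.78 ± 1.82 TPM) and *PLXNA2* (7.43 ± 1.82 TPM). *NRP1* includes 14.75 and 4.44 TPM in WT from NRP1-209, an incomplete model of 497 bases.

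The wider guidance lists held 76 genes, members included, of which 75 were matched in the files and 65 other than *SLIT2* were tested. In labelled *ERF* KD against WT 6 were higher and 11 lower (26.2% of the 65, beside 10.1% of all genes tested), with a median log2 fold change of -0.08 beside 0.01 over all genes. These lists too were chosen with earlier results of these data known, so their shares are descriptions. The count was 7 without WT replicate A, 7 without WT replicate B and 9 without labelled *ERF* KD replicate A.

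Among 5 class 3 semaphorins tested, 2 were higher in labelled *ERF* KD and none lower. *SEMA3D* was at 9.56 and 28.8 CPM against 3.42 and 5.81 in WT (log2 fold change 2.05, SE 0.509, edgeR adjusted p = 0.0398). *SEMA3E*, a ligand of plexin D1, was at 20.9 and 15.4 CPM against 7.46 and 6.58 (1.37, SE 0.287, edgeR adjusted p = 0.0206). Of 12 membrane-associated semaphorins of classes 4 to 7, 2 were lower. *SEMA4A* fell to 0.192 and 0.298 CPM (4 and 6 counts) from 7.36 and 6.73 CPM (-4.82, SE 0.430, edgeR adjusted p = 0.000383). *SEMA7A*, which is held in the membrane by a lipid anchor, was at 22.8 and 32.9 CPM against 88.0 and 90.2 (-1.68, SE 0.183, edgeR adjusted p = 0.00103). The secreted class had calls upward and the membrane-associated classes downward, but uncalled genes went both ways. Of the membrane-associated classes, *SEMA4F* was at 0.18 (SE 0.144). *SEMA6D*, of the same classes, was higher at 4.38 (SE 1.11, edgeR adjusted p = 0.0507), with 35 and 12 counts against 1 and 1. It passed the filter on low counts only through labelled *ERF* KD, so its value is no support. In the secreted class *SEMA3F* was lower (-0.44). The share called was 40% of the class 3 genes and 16.7% of those of classes 4 to 7, beside 10.1% of all genes. The difference between classes was not tested.

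Of 9 plexins, 3 were lower in labelled *ERF* KD, *PLXNA2* and the receptors for class 4 semaphorins *PLXNB1* (log2 fold change -1.35, SE 0.308, edgeR adjusted p = 0.0294) and *PLXNB2* (-0.71, SE 0.163, edgeR adjusted p = 0.0293). Among 12 SLIT-ROBO cofactors and effectors, *SRGAP1*, a GTPase activator that binds ROBO1, was higher (24.1 and 27.6 against 14.6 and 12.8 CPM; edgeR adjusted p = 0.046). Among 14 semaphorin effectors, *MICAL3* was higher (297 and 340 against 138 and 134 CPM) and *DPYSL5* lower (3 and 7 counts against 29 and 41). Of 7 netrin ligands and receptors tested, *NTN4* was higher, and *NTN1* (14.1 and 14.0 against 33.4 and 43.8 CPM) and its receptor *UNC5B* (1 and 7 counts against 62 and 36) were lower. The share called was 33.3% of the plexins and 42.9% of the netrin genes, beside 10.1% of all genes. For the SLIT-ROBO cofactors and effectors it was 8.33% and for the semaphorin effectors 14.3%, both near the share of all genes.

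Of the 65 genes none passed in *ERF* KD + *CIC* KO against WT by edgeR, 12 had an unadjusted p under 0.05 (beside 13.3% of all genes), DESeq2 called 6 (beside 3%) and the replicate block 4 (beside 2.49%). Several of the genes named above were near WT in *ERF* KD + *CIC* KO. *SEMA7A* was at 85.3 and 84.9 CPM, *NTN1* at 34.6 and 37.3 CPM and *ROBO4* at 4.91 and 5.47 CPM. *SEMA4A* lay between, at 3.34 and 2.37 CPM, and *UNC5B* stayed low at 6 and 12 counts. Against labelled *ERF* KD, 5 of the 65 genes were higher and 11 lower, 24.6% in all, beside 11.7% of all genes. Among the 11 was *SEMA6D*, with 35 and 12 counts in labelled *ERF* KD and 0 and 0 in *ERF* KD + *CIC* KO. It had 1 and 1 counts in WT and 2 and 0 in labelled *CIC* KO. It thus passed the filter on low counts only through labelled *ERF* KD, and its call against that group is no support. The interaction was called for 6 (9.23% of the 65, beside 4.15%; 15 with the replicate block, beside 9.55%), upward for *SEMA4A*, *SEMA7A* and *NTN1* and downward for *NRP1*, *SEMA3E* and *MICAL3*.

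**Figure D4:**
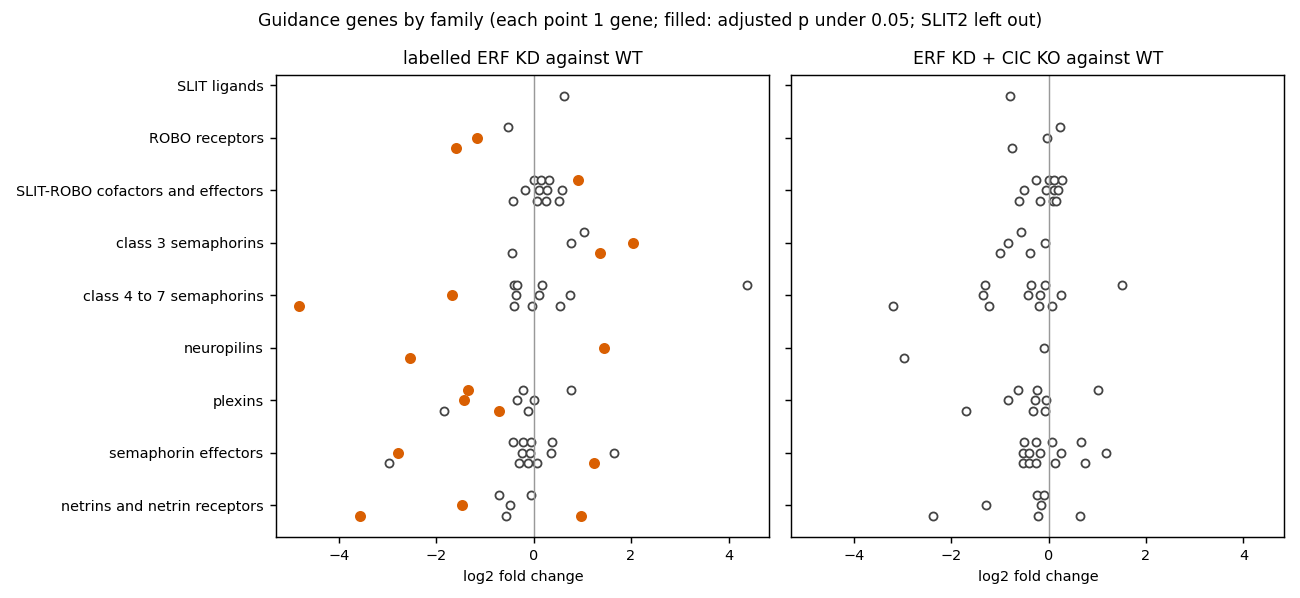
Log2 fold changes (horizontal axis, the same in both panels) of the guidance genes tested, by family (vertical axis), in labelled *ERF* KD and in *ERF* KD + *CIC* KO against WT. Each point is a gene, filled where the adjusted p was under 0.05. The left panel holds 17 filled points and the right panel 0.

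The genes whose log2 CPM was most like that of *SLIT2* over the 8 libraries, by Pearson's r among protein-coding genes tested, were *DMBX1* (r = 0.987), *VIPR1* (0.976), *TENT5C* (0.976), *RANBP10* (0.976) and *USP2* (0.973). Their ranges were smaller than that of *SLIT2*. *VIPR1*, a receptor for vasoactive intestinal peptide, was at 4.37 and 3.01 CPM in WT, 0.624 and 0.844 in labelled *ERF* KD and 6.39 and 4.62 CPM in *ERF* KD + *CIC* KO. For *NRP2* the nearest were *IQCE* (r = 0.980), *FLNC* (0.972) and *PLBD1* (0.965). *FLNC*, an actin crosslinker of muscle, was at 11.4 and 8.21 CPM in WT, 2.79 and 2.98 in labelled *ERF* KD, 11.0 and 9.19 in labelled *CIC* KO and 2.54 and 1.47 CPM in *ERF* KD + *CIC* KO. The 8 points fall into 4 groups and were searched over all genes, so these values describe likeness of pattern and carry no p.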

How the data were processed

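RNA of 8 PNT2 libraries was extracted and sequenced by a company. Per the file headers, the authors deposited estimated counts (not normalized), effective lengths and TPM per transcript in kallisto's format. The methods name RSEM 1.3.3 instead, and the build label is hg19, so coordinates here come from GENCODE release 29 (GRCh38), matched by transcript identifier (153245 of 180253). The strandedness is not given in the sources used here. These counts, summed per gene (33791 genes), were rounded, and 93.2% to 93.3% of each library's counts lay on them. Reads shared by overlapping genes are divided by estimation.

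Groups follow the labels. edgeR 4.0.16 (R 4.3.3; TMM, filterByExpr, glmQLFit and glmQLFTest) was fitted once to all 8 libraries and 14653 genes, with Benjamini-Hochberg adjustment and calls at adjusted p under 0.05. The SE was derived from the F statistic. With 2 libraries against 2, the smallest exact 2-sided permutation p is 0.333, and no such test was run. The fit was tested on simulated data for labelled *ERF* KD against WT. It called 46 of 100 genes given a log2 change of 1 and 81 of 100 given a log2 change of 2. False calls numbered 7 among the unchanged genes. A change near 1 that did not pass is therefore not shown to be absent. Replicates differed by more than sampling noise (chi-square per degree of freedom 21.5 to 43.1). The labels do not say what the replicate letters mark, but the differences between replicates B and A correlated across genes in all 6 pairs of groups (0.136 to 0.335), so values with the letter as a block stand beside the results they change. Alternatives were DESeq2 1.42.0, no filter, a replicate block, length-scaled counts, limma 3.58.1 on log2(TPM + 1) and log2(TPM + 0.1), only the groups compared, and each library left out.

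The members and gene lists were chosen with earlier results of these data known. Named were all members, pathway genes called against WT (up to 3 up and 3 down per list with values), the 5 and 3 genes most correlated with *SLIT2* and *NRP2* (log2 CPM, prior count 2), and *ERF* and *CIC*. *UNC5B*, *ROBO3*, *ROBO2* and *SLIT1* complete their families.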

Additional observations from a re-analysis of the deposited data

Results flagged for a closer look

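*SLIT2* moved in opposite directions from WT, with a fitted log2 fold change of -5.06 in labelled *ERF* KD and 2.12 in *ERF* KD + *CIC* KO. This difference was not tested, since it chose the gene. Over the 15 alternatives the *SLIT2* value ran from -9.94 to -1.12 in labelled *ERF* KD. In *ERF* KD + *CIC* KO it ran from 1.63 to 2.47. The sign held in both groups, and the size of the decrease depended strongly on the processing.

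The interaction term passed for 6 of the 65 guidance genes (edgeR, adjusted p under 0.05), or 9.23%, where 4.15% of all genes passed. The term compares the groups as labelled, and whether it reflects the losses was not tested. The interaction on the log2 scale was -1.51 for *NRP1*, -2.27 for *SEMA3E*, 3.6 for *SEMA4A*, 1.44 for *SEMA7A*, -0.92 for *MICAL3* and 1.44 for *NTN1*. Groups of 2 libraries are too small for a test of single outlying libraries.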

How the results depend on the processing

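With 2 libraries a group, few counts for *SLIT2* and *NRP2*, and labels that *ERF* mRNA goes against, the counts of called genes moved with the processing, and the cause was not tested. No scaling moved the median log2 fold change of all genes by over 0.1. Apart from the DESeq2 and replicate block shares given above, the share of all genes called under each alternative is not given. The counts under the alternatives therefore describe the listed genes only, and whether these moved more than other genes was not tested.

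Among the 9 members other than *SLIT2*, the 4 calls in labelled *ERF* KD against WT became 7 without the filter, 2 with length-scaled counts, 2 with limma on log2(TPM + 1), 2 on log2(TPM + 0.1), and 2 to 4 with a library left out. The 0 calls in *ERF* KD + *CIC* KO against WT became 4 with DESeq2 and 4 without the filter. Against labelled *ERF* KD the 3 calls became 5 with DESeq2 and 5 without the filter, and against labelled *CIC* KO the 0 calls became 1 and 2. The 1 call in the interaction became 4 with DESeq2, 6 without the filter and 1 to 2 with a library left out.

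Among the 65 pathway genes, the 17 calls in labelled *ERF* KD against WT became 10 with length-scaled counts, 8 on log2(TPM + 1), 7 on log2(TPM + 0.1) and 7 to 17 with a library left out. The 0 calls in labelled *CIC* KO against WT became 1 without the filter. For *ERF* KD + *CIC* KO, the 0 calls against WT became 6 with DESeq2 and 8 without the filter, the 16 against labelled *ERF* KD became 8 on log2(TPM + 1) and 8 to 17 with a library left out (8 without *ERF* KD + *CIC* KO replicate A, 9 without its replicate B and 10 without labelled *ERF* KD replicate A), and the 0 against labelled *CIC* KO became 1 and 3 with DESeq2 and without the filter. The 6 calls in the interaction became 11 with DESeq2, 18 without the filter, 2 on either log2 TPM scale and 2 to 6 with a library left out (2 without either WT replicate B or *ERF* KD + *CIC* KO replicate B).

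The labels do not say what the replicate letters mark, and each comparison has 2 pairs. edgeR's common biological coefficient of variation was 0.197 without the letter in the fit and 0.142 with it. With the letter as a replicate block, the members called were 6 in labelled *ERF* KD against WT, 5 in *ERF* KD + *CIC* KO against labelled *ERF* KD, 2 against WT and 5 in the interaction, and 0 in the other comparisons. Among the 9 members it changed no call other than those given with their genes. The pathway genes called with this block were 23, 23, 4 and 15 in the same order.

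Directions reversed in uncalled values, several of them close to 0. The *NRP2* interaction, 0.27 (SE 0.593) in the fit to all libraries, varied widely in size and sign. With a library left out, *SEMA3A* ran from -0.19 to 0.61 in labelled *CIC* KO and from -0.39 to 0.29 in *ERF* KD + *CIC* KO against WT, *SEMA3C* from -0.90 to 0.02 and *NRP1* from -0.12 to 0.04 in labelled *CIC* KO against WT. *PLXNA2* ran from -0.51 to 0.32 and from -0.54 to 0.17 in the same pair of comparisons as *SEMA3A*. In *ERF* KD + *CIC* KO against labelled *ERF* KD, *SEMA3F* ran from -0.48 to 0.36 and *NRP2* from -1.28 to 0.06. The *NRP2* interaction ran from -0.57 to 0.77, and was -1.65 with length-scaled counts, -0.74 on log2(TPM + 1) and -1.19 on log2(TPM + 0.1). *NRP1* in labelled *CIC* KO against WT was 0.11 with length-scaled counts and 0.05 on both log2 TPM scales. *PLXNA1* ran from -0.06 to 0.08 in labelled *CIC* KO, from -0.29 to 0.13 in *ERF* KD + *CIC* KO against WT, from -0.16 to 0.25 against labelled *ERF* KD and from -0.16 to 0.24 in the interaction. With length-scaled counts it was -0.17 in the interaction, 0.01 in labelled *ERF* KD against WT, and 0.02 for *ERF* KD + *CIC* KO. On log2(TPM + 1) and log2(TPM + 0.1) it was -0.01 and -0.02 against labelled *ERF* KD, and -0.15 and -0.16 in the interaction.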
